A study of Mus musculus with 6 samples.

Results

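The endosomal sorting genes described here, those of the ESCRT complexes and of the VPS proteins, are the rows of a read count table whose symbol starts with Chmp or Vps and a digit, or is Hgs, Stam, Stam2, Tsg101, Snf8 or Pdcd6ip, and whose mean over 6 mice was at least 10 counts. Of 51 genes that matched by symbol, among 22183 in the table, 50 met the count minimum and all 50 were among the 14005 genes tested. The gene left out, Vps37d, had a mean of 5.33 counts, with 0, 0 and 2 counts in the saline mice and 18, 10 and 2 in the PD mice. The lowest gene kept, Chmp4c, had a mean of 18.8. The RNA came from CD31+ cells of the mesentery of wild-type adult male C57BL/6J mice that received daily intraperitoneal injections for 6 weeks, either of saline (saline mice, n = 3) or of a high-glucose Dianeal peritoneal dialysis fluid (PD fluid, PD mice, n = 3). Both groups were labelled wild type, with no transgene or deletion. The question put to these samples was how cells labelled as peritoneal ECs change their transcripts during exposure to PD fluid. Total counts ran from 21973426 to 26374292 per mouse.

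The endosomal sorting complexes required for transport (ESCRT) and the VPS proteins, named after yeast mutants in vacuolar protein sorting, decide whether a membrane protein taken up by a cell is destroyed or returned to the surface. ESCRT-0, -I and -II gather ubiquitin-tagged cargo on the early endosome and ESCRT-III filaments, remodelled by the ATPase VPS4, bud it into vesicles inside the endosome that are later digested in the lysosome. Retromer and retriever carry other cargo back out, HOPS and CORVET tether endosomes before they fuse, GARP and EARP tether vesicles at the Golgi and at recycling endosomes, and VPS13 proteins move lipids between membranes. In endothelial cells (ECs) these routes handle growth factor receptors and junction proteins such as VE-cadherin.

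The labelled cell type was checked against marker genes, since the sample labels name a magnetic CD31+ sort whereas the study's methods describe flow sorting of CD31+ cells that lacked the leukocyte antigen CD45. The 12 endothelial markers summed to 695 to 764 CPM (read counts scaled to library depth) in saline mice and 1443 to 1595 CPM in PD mice, and all 12 rose. The 6 pan-leukocyte markers summed to 9017 to 9509 CPM in saline and 7205 to 7318 CPM in PD mice, with 5 of 6 lower. Ptprc, which encodes CD45, stood at 2295, 2519.9 and 2304 CPM in the saline mice and 1405, 1482 and 1531 CPM in the PD mice. Cdh5, which encodes VE-cadherin, stood at 18.4, 16.5 and 21.9 CPM in the saline mice and 34.03, 32.2 and 33.8 CPM in the PD mice. Per length of transcript the mean was 624 FPKM for Ptprc and 4.72 FPKM for Cdh5 in saline mice, and 392.2 and 8.37 FPKM in PD mice, which goes against the endothelial label. The 6 B cell markers (5827 to 6104 against 2767 to 2803 CPM, 6 lower) and the 6 T and NK cell markers (1481 to 1548 against 1155 to 1298 CPM, 3 lower) declined in sum. The 6 macrophage markers went from 2057 to 2184 CPM up to 8391 to 9092 CPM, with all 6 higher. The sums of neutrophil (13.3 to 15.5 against 187 to 200.6 CPM), mesothelial (13.5 to 17.2 against 147 to 172 CPM), fibroblast (75.7 to 79.4 against 715 to 782 CPM), mural (258 to 278 against 385 to 430.4 CPM) and pancreatic acinar markers (1.76 to 5.35 against 6290 to 7149 CPM) were all higher in PD mice, as were all of their 30 tested genes, and no listed marker was at 0 in all mice of a group. The part of this change in cell content in any result given here was not tested. ESCRT and VPS genes are used by every nucleated cell, and in bulk RNA fewer cells of a type and less RNA per cell cannot be told apart.

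Transcripts of this machinery differed between PD and saline mice in both directions and mostly by small amounts (the plot of log2 fold changes by complex). With edgeR's quasi-likelihood test and Benjamini-Hochberg adjustment over all tested genes, 23 of the 50 genes (46%) passed an adjusted p of 0.05, against 58.9% of all genes tested. Of these, 10 were higher, against 31.1% of all genes tested, and 13 were lower, against 27.8%. Leaving out PD mouse 1 brought the lower genes to 8. Among the 50 genes 5 also changed by at least 0.5 on the log2 scale, of which 4 rose (Vps26b, Vps37c, Vps9d1 and Hgs) and 1 fell (Vps28), where 36.4% of all tested genes passed both limits, 25.3% higher and 11.1% lower. The median log2 fold change was -0.08 over the 50 genes and 0.02 over all tested genes, and the median absolute log2 fold change was 0.17 over the 50 and 0.40 over all. In 28 of the 50 genes the saline and PD mice did not overlap, against 65.6% of all genes tested, with 14 in each direction, where 34% of all genes did not overlap with PD mice higher and 31.6% with PD mice lower.

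An error after a log2 fold change is its standard error (SE), and one after a mean CPM is the SD of 3 mice. The directions are relative to the bulk of transcripts. Scaling the libraries to the 12 endothelial markers moved the median of all genes by -1.08 on the log2 scale, and on that scale 7.05% of all tested genes were higher and 74.5% lower, with 0 of the 50 genes higher and 48 lower. Relative to the median of all genes, 20 of the 50 lay above it under either scaling. Every rise or fall given below, in the text and in the plots, is on the scale set by all genes, and under endothelial scaling every positive fold change among these 50 genes turned negative, including that of Vps26b (-0.24).

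**Figure D1:**
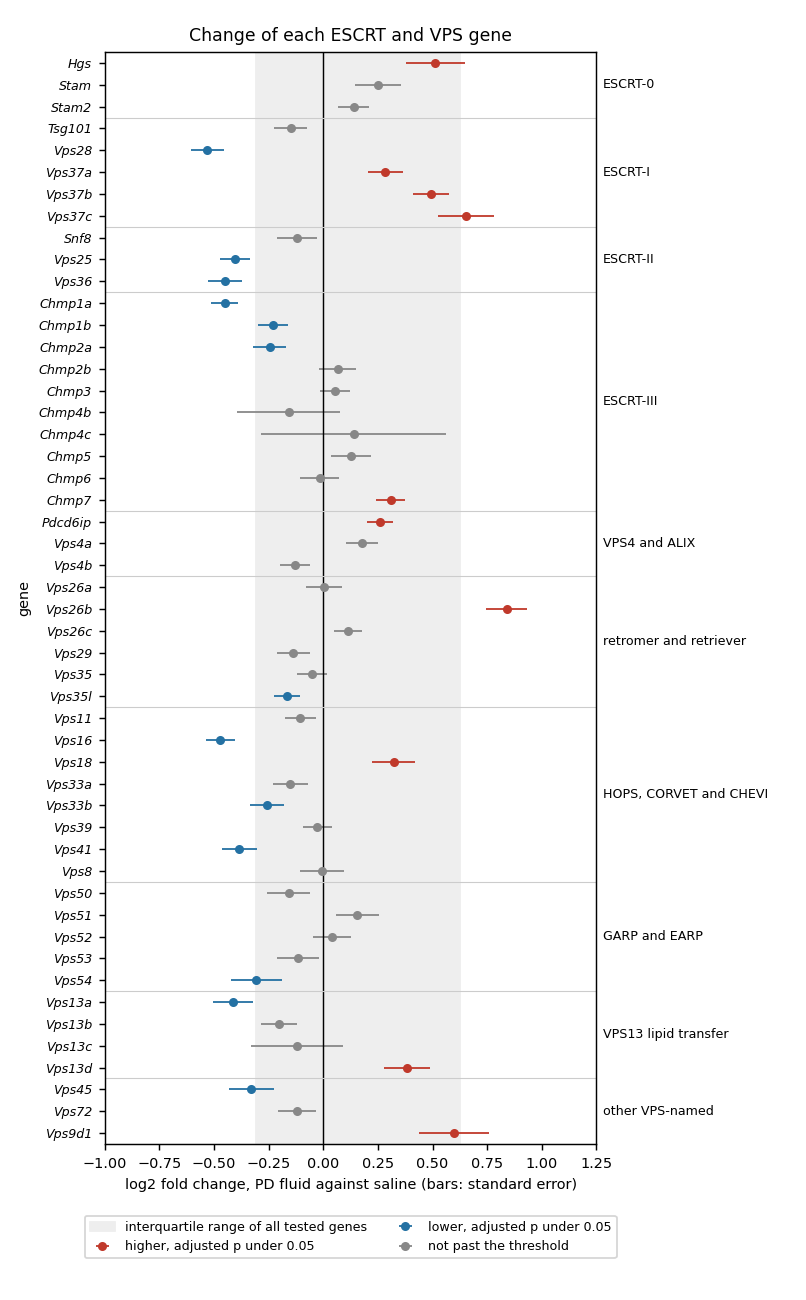
Log2 fold change of PD fluid against saline (x axis) for each of the 50 ESCRT and VPS genes (y axis), ordered by complex, with points for edgeR estimates, bars for their standard error, red and blue for genes past the adjusted p threshold and grey shading from -0.31 to 0.63 for the interquartile range of all tested genes. The 50 estimates run from -0.53 (Vps28) to 0.84 (Vps26b), with 10 red and 13 blue points on the scale set by all genes.

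Compared per length of transcript, these genes spanned a wide range, from 0.163 to 264 FPKM (fragments scaled to transcript length and to library depth, mean of 6 mice), with a median of 25.6 FPKM. The highest were Vps28 (264 FPKM) and Chmp2a (164 FPKM), followed by the retromer subunit Vps29 (143 FPKM). The lowest was Chmp4c (0.163 FPKM), below Vps13c (1.199 FPKM) and Vps13d (1.44 FPKM), which belong to the longest transcripts of the set. Across the 50 genes the Spearman correlation of mean FPKM with log2 fold change was -0.29, and across the 14005 tested genes it was -0.34, both over genes of the same 6 libraries, which are not independent replicates.

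ESCRT-0, the complex that first binds ubiquitinated cargo, was represented by Hgs, its lipid- and ubiquitin-binding subunit, and by the partner subunits Stam and Stam2. Hgs (chr11:120467635-120483979 in GRCm38, plus strand) was at 57.8, 43.9 and 68.5 CPM in the saline mice and 88.6, 77.7 and 76.5 CPM in the PD mice. Its highest saline mouse lay below its lowest PD mouse, and saline mouse 2 was well under the other saline mice. Hgs rose by 42.6% (log2 fold change 0.51 ± 0.13, adjusted p = 0.00724), which went to 0.25, adjusted p = 0.0369, after a correction for the GC content of transcripts. That correction, here and below, also takes out any difference between the groups that follows GC content.

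The STAM genes had the same sign but did not pass the test. Stam was at 16.3, 17.9 and 18.5 CPM in the saline mice and 20.8, 22.3 and 19.5 CPM in the PD mice (log2 fold change 0.25 ± 0.10, adjusted p = 0.0608). Stam2 was at 62.7, 60.9 and 63.6 CPM in the saline mice and 66.1, 67.3 and 72.8 CPM in the PD mice (log2 fold change 0.14 ± 0.07, adjusted p = 0.114). In both, the groups did not overlap, and after the GC correction both passed (Stam 0.40, adjusted p = 0.00673, and Stam2 0.24, adjusted p = 0.00951). Of the 50-base stretches of the Hgs transcript, 98.2% also occur in a second gene of the same name in the GENCODE M21 annotation. The count table holds no second row of that name, and the annotation behind it is not given. Whether reads were split between such genes is therefore not known.

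ESCRT-I, the bridge from ESCRT-0 to the later complexes, had the widest range of log2 fold changes among the complexes, from -0.53 to 0.65. Its ubiquitin-binding subunit Tsg101 was at 97.98, 97.8 and 102 CPM in the saline mice and 83.3, 86.6 and 98.96 CPM in the PD mice (log2 fold change -0.15 ± 0.08, adjusted p = 0.115), and the groups overlapped. Without PD mouse 3 it passed (-0.22, adjusted p = 0.0256), and with limma on log2(FPKM + 1) its log2 fold change was -0.07. Vps28, which connects ESCRT-I to ESCRT-II and was the most abundant of the 50 genes per length, was at 280.5, 293 and 281 CPM in the saline mice and 176, 199 and 216 CPM in the PD mice. All PD mice lay below all saline mice, with PD mouse 1 the lowest, and Vps28 (chr15:76622087-76626086, minus strand) fell by 30.8% (log2 fold change -0.53 ± 0.08, adjusted p = 0.000158).

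The 3 genes for the exchangeable VPS37 subunit that met the count minimum all rose, in contrast to Vps28. Among all tested genes 31.1% rose. Vps37a was at 36.1, 40.4 and 37.7 CPM in the saline mice and 44.8, 46.8 and 47.3 CPM in the PD mice. Vps37b was at 130.4, 110.4 and 139 CPM in the saline mice and 184, 176 and 175 CPM in the PD mice. Vps37c was at 31.98, 23.8 and 34.7 CPM in the saline mice and 51.4, 45.3 and 45.7 CPM in the PD mice. In each gene every PD mouse was above every saline mouse, and in Vps37b and Vps37c, as in Hgs, saline mouse 2 was the lowest, whereas in Vps37a it was the highest saline mouse. The changes were 0.28 ± 0.08 (SE) for Vps37a (adjusted p = 0.0101), 0.49 ± 0.08 for Vps37b (adjusted p = 0.000454) and 0.65 ± 0.13 for Vps37c (chr19:10688735-10714627, plus strand, adjusted p = 0.00122). With the GC correction these were 0.43, 0.23 and 0.40, all past the threshold, so the order of Vps37a and Vps37b turned. Vps37b shares 35.1% of its 50-base stretches with Hip1r, a gene that overlaps it on the other strand and did not pass the test (log2 fold change 0.14 ± 0.20, adjusted p = 0.566), and the library kit is not stated to mark strand.

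**Figure D2:**
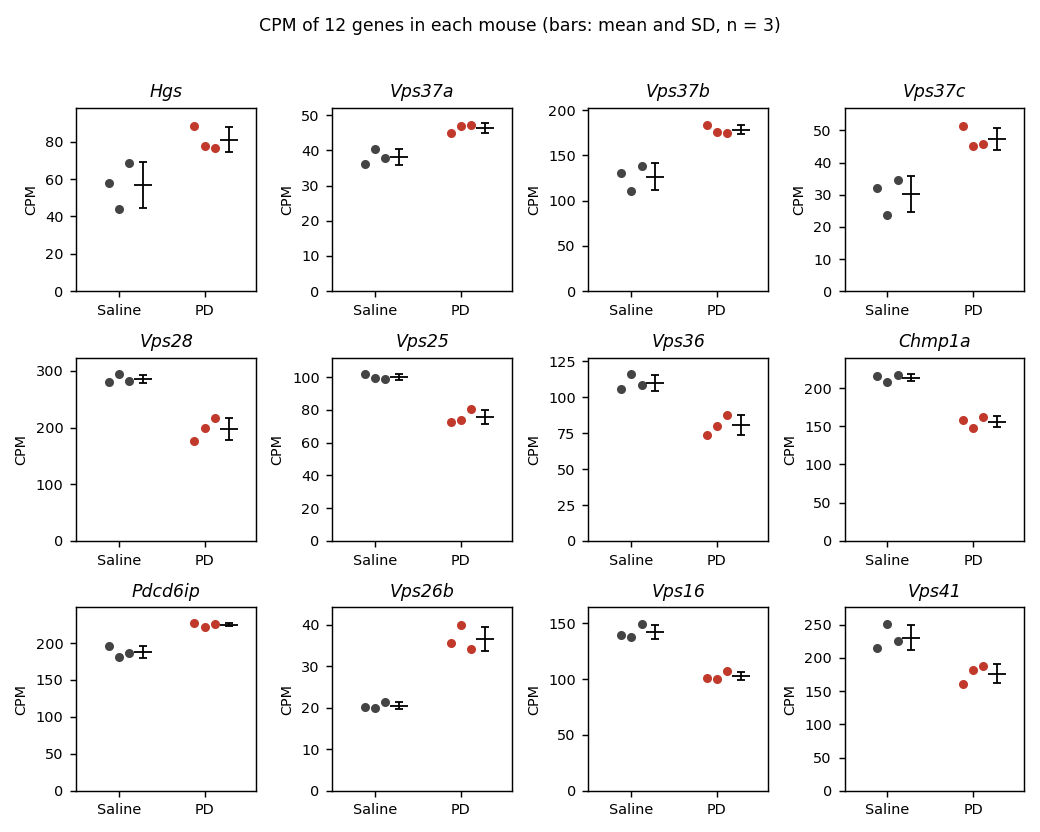
CPM (y axis, from 0) of 12 genes in the 3 saline (grey) and 3 PD mice (red), 1 point per mouse, with the mean and SD beside them. Hgs, the 3 Vps37 genes, Pdcd6ip and Vps26b sit higher in every PD mouse, and Vps28, Vps25, Vps36, Chmp1a, Vps16 and Vps41 sit lower in every PD mouse, on the scale set by all genes.

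ESCRT-II, which passes cargo on to ESCRT-III, was lower in 2 of its 3 genes, where 27.8% of all tested genes were. Vps25, the subunit that recruits CHMP6, went from 100.1 ± 1.76 CPM in saline mice to 75.6 ± 4.34 CPM in PD mice (log2 fold change -0.41 ± 0.07, adjusted p = 0.000482). Vps36, the subunit that binds lipid and ubiquitin, went from 110.1 ± 5.397 CPM in saline mice to 80.6 ± 6.97 CPM in PD mice (log2 fold change -0.45 ± 0.08, adjusted p = 0.00061). Neither gene had overlapping groups. Snf8, the third subunit, was at 27.7 ± 1.23 CPM in saline and 25.5 ± 1.49 CPM in PD mice (log2 fold change -0.12 ± 0.09, adjusted p = 0.282), with overlapping groups. After the GC correction Snf8 passed as well (-0.29, adjusted p = 0.0137). The Vps25 transcript shares 84.0% of its 50-base stretches with Ramp2, an endothelial receptor-associated gene at the same locus and on the same strand. Ramp2 moved the other way, from 23.3 ± 0.292 CPM in saline mice to 49.9 ± 4.41 CPM in PD mice (log2 fold change 1.10 ± 0.09, adjusted p = 2.15e-06).

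ESCRT-III filaments are built from CHMP proteins, and of 10 genes 1 rose and 3 fell, or 10% and 30%, where 31.1% and 27.8% of all tested genes did. Chmp1a, whose product binds VPS4, was at 215, 208 and 217 CPM in the saline mice and 158, 148 and 162 CPM in the PD mice (log2 fold change -0.45 ± 0.06, adjusted p = 0.000105). Its paralog Chmp1b was at 95.9, 105 and 94.03 CPM in the saline mice and 83.4, 86.6 and 81.5 CPM in the PD mice (log2 fold change -0.23 ± 0.07, adjusted p = 0.0153). The groups were separate in both genes, but the fall of Chmp1b did not pass after the GC correction (-0.09, adjusted p = 0.247).

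Chmp2a, which with CHMP3 recruits VPS4 to the filament, was at 162, 176 and 165 CPM in the saline mice and 129, 141 and 155 CPM in the PD mice (log2 fold change -0.24 ± 0.08, adjusted p = 0.017). Its call was lost without PD mouse 1 or without PD mouse 2, where the highest adjusted p was 0.0681. Its paralog Chmp2b was at 59.2, 64.5 and 52.7 CPM in the saline mice and 61.5, 60.1 and 62.8 CPM in the PD mice (log2 fold change 0.07 ± 0.08, adjusted p = 0.525). The groups were separate in Chmp2a and overlapped in Chmp2b. Chmp7, which acts with ESCRT-III at the nuclear envelope, rose from 64.3 ± 2.02 CPM in saline mice to 79.7 ± 0.971 CPM in PD mice (log2 fold change 0.31 ± 0.07, adjusted p = 0.00224), and missed the threshold after the GC correction (0.17, adjusted p = 0.0593).

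The remaining ESCRT-III genes did not pass the test. Chmp4b, which forms the main filament, was at 4.33, 2.95 and 3.81 CPM in the saline mice and 3.35, 4.07 and 2.54 CPM in the PD mice (log2 fold change -0.16 ± 0.24, adjusted p = 0.585). Chmp4c, a variant with a role in the last step of cell division, was at 0.898, 0.968 and 0.373 CPM in the saline mice and 0.809, 0.923 and 0.725 CPM in the PD mice (log2 fold change 0.14 ± 0.42, adjusted p = 0.796). Both were the faintest of the ESCRT genes and the mice of each group overlapped, with standard errors well above the median of 0.08 over the 50 genes. Chmp6, which starts the filament, Chmp3 and Chmp5 had log2 fold changes of -0.02, 0.05 and 0.12.

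VPS4 takes ESCRT-III apart, and ALIX, encoded by Pdcd6ip, brings cargo to ESCRT-III by another route. Pdcd6ip (chr9:113651744-113708259, minus strand) was at 196, 181 and 187 CPM in the saline mice and 227, 222 and 226 CPM in the PD mice. Every PD mouse was above every saline mouse by a small margin, and Pdcd6ip rose by 19.7% (log2 fold change 0.26 ± 0.06, adjusted p = 0.00301). Vps4a was at 49.5, 48.8 and 49.4 CPM in the saline mice and 52.1, 57.8 and 57.2 CPM in the PD mice (log2 fold change 0.18 ± 0.07, adjusted p = 0.0599). Vps4b was at 191, 205 and 187 CPM in the saline mice and 165, 186 and 181 CPM in the PD mice (log2 fold change -0.13 ± 0.07, adjusted p = 0.119). Neither VPS4 gene passed the test, although Vps4a did without PD mouse 1 (0.22, adjusted p = 0.0357) and with limma on log2(FPKM + 1) (adjusted p = 0.0362). In both genes the groups did not overlap, with every PD mouse above the saline mice in Vps4a and below them in Vps4b. Of the 24 genes of ESCRT, VPS4 and ALIX together 6 rose and 6 fell (25% each way), where 31.1% and 27.8% of all tested genes did.

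**Figure D3:**
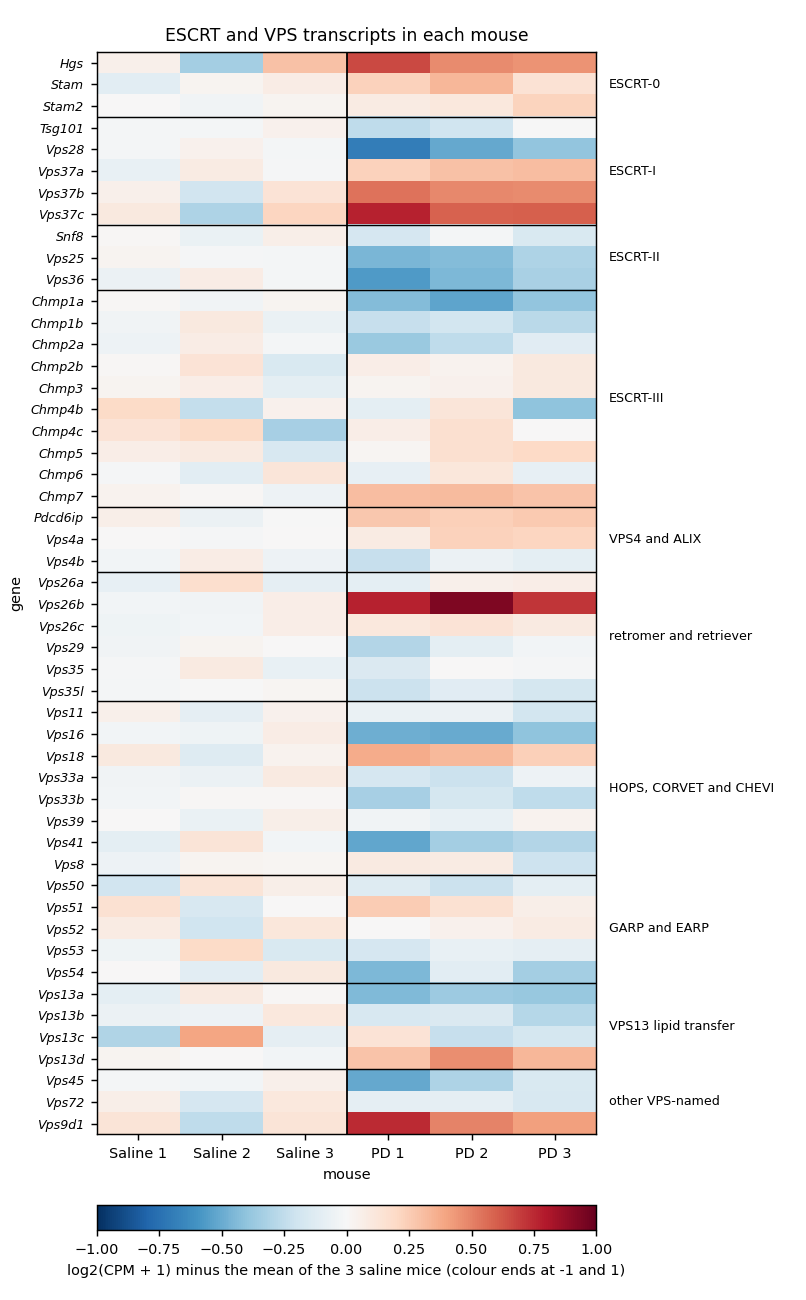
Heat map of log2(CPM + 1) minus the mean of the 3 saline mice for the 50 genes (rows, by complex) in each of the 6 mice (columns). The PD columns are red for Hgs, the Vps37 genes and Vps26b and blue for Vps28, Vps25, Vps36, Chmp1a and Vps16, and saline mouse 2 is bluer than the other saline mice in Hgs, Vps37b and Vps37c.

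Retromer is the trimer of VPS26, VPS29 and VPS35 that returns receptors from endosomes. Of its 4 subunit genes 1 was called, where 58.9% of all tested genes were. Vps26b (chr9:27007771-27030065, minus strand), 1 of the alternative VPS26 subunits, was at 20.1, 19.9 and 21.4 CPM in the saline mice and 35.6, 39.9 and 34.3 CPM in the PD mice. The groups lay far apart relative to their spread, and Vps26b rose by 78.8% (log2 fold change 0.84 ± 0.09, adjusted p = 2.69e-05), the largest change among the 50 genes. Its paralog Vps26a was at 144, 172 and 143 CPM in the saline mice and 142, 158 and 160.2 CPM in the PD mice (log2 fold change 0.00 ± 0.08, adjusted p = 0.971), with overlapping groups. Vps35, the scaffold, was at 261, 280.3 and 250.3 CPM in the saline mice and 239, 264 and 261 CPM in the PD mice (log2 fold change -0.05 ± 0.07, adjusted p = 0.528). Vps29 had a log2 fold change of -0.14, past the threshold only with limma on log2(FPKM + 1) (-0.17, adjusted p = 0.0312) and under endothelial scaling. The groups overlapped in Vps35 and in Vps29. Of the retriever genes, Vps26c was not called (0.11). Vps35l fell slightly, from 169 ± 2.31 CPM in saline mice to 150.3 ± 5.499 CPM in PD mice (log2 fold change -0.17 ± 0.06, adjusted p = 0.0304), a call lost on leaving out any 1 mouse other than saline mouse 2, with adjusted p up to 0.0812.

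The tethers HOPS, which brings late endosomes to lysosomes, and CORVET, which acts on early endosomes, share a core of VPS11, VPS16, VPS18 and VPS33A. Within that core Vps16 fell from 142 ± 6.34 CPM in saline mice to 103 ± 3.84 CPM in PD mice (log2 fold change -0.47 ± 0.07, adjusted p = 0.00012). Vps18 in contrast rose from 22.5 ± 1.86 CPM in saline mice to 28.1 ± 1.37 CPM in PD mice (log2 fold change 0.32 ± 0.10, adjusted p = 0.0153). The rise of Vps18 was not kept after the GC correction (0.06, adjusted p = 0.603) or without PD mouse 1 (0.29, adjusted p = 0.0536), whereas Vps16 passed in each setting tried. Vps11 and Vps33a did not pass, with log2 fold changes of -0.11 and -0.15. Vps33a itself was at 59.05, 58.1 and 64.3 CPM in the saline mice and 53.5, 51.8 and 58.1 CPM in the PD mice (log2 fold change -0.15 ± 0.08, adjusted p = 0.12), with the groups just overlapping.

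Among the subunits outside that core, Vps41, specific to HOPS, fell from 231 ± 18.8 CPM in saline mice to 177 ± 14.5 CPM in PD mice (log2 fold change -0.39 ± 0.08, adjusted p = 0.00186), and its groups did not overlap. The other HOPS subunit gene Vps39 (-0.03) and the CORVET subunit gene Vps8 (-0.01) were not called. Vps33b, which acts in the separate CHEVI tether, was at 46.98, 48.3 and 48.1 CPM in the saline mice and 37.9, 42.2 and 39.9 CPM in the PD mice. It fell by 16.4% (log2 fold change -0.26 ± 0.08, adjusted p = 0.0142), narrowly missing the threshold without PD mouse 1 (adjusted p = 0.0509).

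The core promoters of these genes were searched for CACGTG, a palindrome (the same on both strands) bound by basic helix-loop-helix factors, and for the same core preceded by GT and followed by AC, the palindromic CLEAR element found at many lysosomal genes, which holds the shorter motif within it. RefSeq windows in GRCm38.p6, from 250 bases before to 50 bases after the start, matched 32 of the 50 genes in 38 windows. CACGTG was present in 15.8% of these windows, in Vps16, Vps33a, Vps26a, Vps50 and Pdcd6ip, and in 7.15% of all 32851 windows. The CLEAR element was present in 10.5% of them, in Vps16, Vps33a and both windows of Vps26a, and in 0.326% of all windows. The stretches around the core in Vps16 and Vps26a, and around the shorter motif in Pdcd6ip, are shown because these genes carry it ahead of their start and differed in their change. In these, capitals mark CACGTG.
Vps16 (chr2:130424262-130424319, plus strand): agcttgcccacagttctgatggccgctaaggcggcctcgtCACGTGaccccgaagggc
Vps26a (chr10:62486942-62487027, minus strand): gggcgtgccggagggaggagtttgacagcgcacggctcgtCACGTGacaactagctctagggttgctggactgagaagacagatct
Pdcd6ip (chr9:113708260-113708337, minus strand): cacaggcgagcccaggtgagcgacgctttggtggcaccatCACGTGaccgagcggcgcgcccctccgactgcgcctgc

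The core shown begins 18 bases before the RefSeq start in Vps16, 182 bases before it in Vps26a and 38 bases before it in Pdcd6ip. The other window of Vps26a holds a separate copy of the element (chr10:62486704-62486789, not shown), whose core begins 151 bases before the start of that window's transcript. The log2 fold changes of the genes with the longer element were -0.47 for Vps16, -0.15 for Vps33a and 0.00 for Vps26a, and only the first passed the test. Those of the genes with the shorter motif alone were 0.26 for Pdcd6ip, which rose, and -0.16 for Vps50, which did not pass. The genes that hold the motif had fold changes of both signs.

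GARP and EARP share VPS51, VPS52 and VPS53 and differ in VPS54 or VPS50. Of the 5 genes 1 was called lower, where 27.8% of all tested genes were. That gene, Vps54, went from 24.8 ± 1.81 CPM in saline mice to 20.03 ± 2.62 CPM in PD mice (log2 fold change -0.31 ± 0.12, adjusted p = 0.0402). Its mice overlapped by a narrow margin, and the call was lost in 7 of the other settings, with adjusted p up to 0.231. Among these were the fits without saline mouse 1, saline mouse 3, PD mouse 1 or PD mouse 3. Vps50, Vps51, Vps52 and Vps53 were not called, with log2 fold changes from -0.16 to 0.16, and overlapped in every case.

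The VPS13 genes encode long bridge-like proteins that channel lipids between membranes, and they split as well. Vps13a was at 27.7, 31.7 and 29.98 CPM in the saline mice and 21.6, 22.9 and 22.6 CPM in the PD mice (log2 fold change -0.41 ± 0.09, adjusted p = 0.00284), with every PD mouse below every saline mouse. Vps13c was at 5.97, 10.3 and 7.08 CPM in the saline mice and 8.46, 6.33 and 6.62 CPM in the PD mice (log2 fold change -0.12 ± 0.21, adjusted p = 0.647), and saline mouse 2 was the highest of all 6 mice. Vps13d rose from 14.99 ± 0.285 CPM in saline mice to 19.5 ± 1.304 CPM in PD mice (log2 fold change 0.38 ± 0.10, adjusted p = 0.00847). Vps13b was not called (log2 fold change -0.20 ± 0.08, adjusted p = 0.0547) although its groups did not overlap, and passed narrowly without saline mouse 2 (adjusted p = 0.0486) and with upper-quartile scaling (adjusted p = 0.0492). The rise of Vps13d missed the threshold with limma on log2(FPKM + 1), where its log2 fold change was 0.20 with an adjusted p of 0.111. Its means were 1.27 FPKM in saline mice and 1.61 FPKM in PD mice, a level at which the pseudocount of 1 makes a change smaller.

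The symbol rule also took in 3 genes outside these complexes. Vps9d1, which encodes a protein with the VPS9 domain found in activators of RAB5-type GTPases, was at 8.71, 6.46 and 8.695 CPM in the saline mice and 13.9, 11.5 and 10.8 CPM in the PD mice. All PD mice were higher, and Vps9d1 rose by 51.5% (log2 fold change 0.60 ± 0.16, adjusted p = 0.00792), a call not kept after the GC correction (0.27, adjusted p = 0.0884). Vps45, which helps endosomal SNARE proteins assemble, fell from 33.97 ± 1.03 CPM in saline mice to 27.1 ± 3.45 CPM in PD mice (log2 fold change -0.33 ± 0.10, adjusted p = 0.0184), a call lost without saline mouse 1, saline mouse 3, PD mouse 1 or PD mouse 2, with adjusted p up to 0.0687. Vps72, a chromatin-remodelling subunit despite its name, was not called (log2 fold change -0.12 ± 0.09, adjusted p = 0.244), but passed without saline mouse 2 (-0.20, adjusted p = 0.0426) and after the GC correction (-0.35, adjusted p = 0.000817).

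Pairs of paralogs, most of which fill the same place in a complex, were compared by their log2 ratio within each mouse. The exceptions are Vps33a/Vps33b, whose products act in separate tethers, and Vps13a/Vps13c, which encode lipid transfer proteins. Such a ratio does not depend on how libraries are scaled. Of 9 pairs, 4 had ratios that did not overlap between groups. The share over other gene pairs was not counted, and 65.6% of single tested genes did not overlap. The Vps26a/Vps26b ratio was 2.85, 3.11 and 2.74 on the log2 scale in saline mice and 2.001, 1.99 and 2.23 in PD mice, a difference of -0.83. The Chmp2a/Chmp2b ratio differed by -0.32, the Vps4a/Vps4b ratio by 0.31 and the Vps37a/Vps37b ratio by -0.22. The Vps37a/Vps37b groups were barely apart, with a ratio of -1.879 in saline mouse 3 and -1.885 in PD mouse 3. The Vps37a/Vps37b difference went to -0.08 without saline mouse 2, and on the deposited FPKM values its exact permutation p was 0.6. With 3 mice against 3 an exact two-sided permutation test can reach no p below 0.1, which was the value for each of these 4 pairs (0.225 adjusted over the 9 pairs).

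The other 5 pairs overlapped. Stam/Stam2 differed by 0.11 (exact permutation p = 0.4), Vps33a/Vps33b by 0.11 and Vps13a/Vps13c by -0.31 (p = 0.3 for each, exact), Chmp1a/Chmp1b by -0.22 (exact p = 0.2) and Chmp4b/Chmp4c by -0.41 (exact p = 0.6). Without saline mouse 3 the Chmp4b/Chmp4c difference changed sign, to 0.06. On leaving out 1 mouse the Vps13a/Vps13c difference ran from -0.49 (without saline mouse 2) to -0.16 (without PD mouse 1). That of Stam/Stam2 ran from 0.05 (without PD mouse 2) to 0.20 (without PD mouse 3), and that of Vps33a/Vps33b from 0.06 (without PD mouse 3) to 0.18 (without PD mouse 2). On the deposited FPKM values the Vps13a/Vps13c difference was -0.37, with an exact permutation p of 0.1. GC content differed within pairs, for example between Vps37a (39.8%) and Vps37b (58.01%), and with the GC correction the change of Vps37a was above that of Vps37b (0.43 against 0.23).

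**Figure D4:**
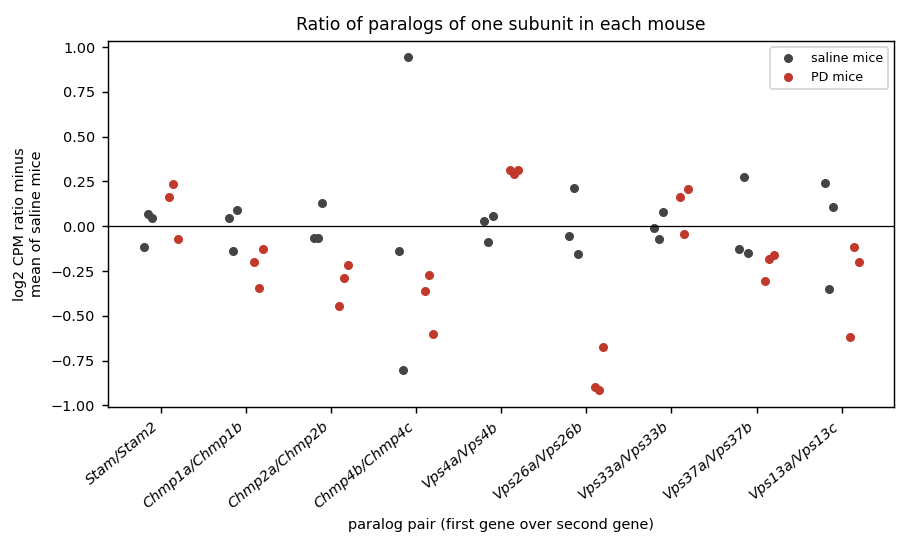
Log2 ratio of the CPM of the first over the second paralog in each mouse, minus the mean of the saline mice (y axis), for 9 pairs (x axis), with saline mice in grey and PD mice in red. The Vps26a/Vps26b ratio is lower by 0.83 and the Vps4a/Vps4b ratio higher by 0.31 in PD mice, without overlap.

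Saline mouse 2 stood apart in several of these genes. It was the lowest saline mouse in 7 of the 10 genes that rose and the highest in 7 of the 13 that fell. Leaving out saline mouse 2 lost no call among these genes, and gave 10 higher and 15 lower among the 50. How often it was the lowest or highest saline mouse was not counted over all tested genes. Over the 50 genes the deviation of saline mouse 2 from the other saline mice correlated with transcript GC content (Spearman -0.69, and -0.38 over all tested genes with a GC value), a description across genes of 1 library. The like correlation for PD mouse 3 against the other PD mice was -0.27, both over the 50 genes and over all tested genes with a GC value. Genes that rose had a median GC content of 56.0%, those that fell 49.98%, the others 47.2% and all tested genes 50%. GC content also correlated with the log2 fold change itself (Spearman 0.21 over the 50 genes, 0.25 over all tested genes with a GC value). The GC correction therefore also takes out part of the difference between the groups, whatever its source. With the GC correction 9 genes were higher, against 28.6% of all genes tested, and 16 lower, against 30.5%. Calls gained under it were those of Stam, Stam2, Snf8, Vps72, Chmp6 (-0.29, adjusted p = 0.0123), Vps11 (-0.22, adjusted p = 0.0102) and Vps33a (-0.21, adjusted p = 0.0295).

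Other genes of the same routes were taken from lists by function, of which 52 of 53 matched the table and were tested, and the other, Vamp7, was not analysed here. Of the 52, 6 rose and 20 fell, where 31.1% and 27.8% of all tested genes did, and the rises went to 3 without PD mouse 2. Under endothelial scaling 0 rose and 50 fell. The CCC complex, which works with retriever and is made largely of COMMD proteins, had 7 of 12 genes lower and none higher, with a median log2 fold change of -0.34. The class III PI3-kinase complex, which makes the endosomal lipid that HRS binds, had 3 of 6 lower, namely Pik3c3 (-0.36), Becn1 (-0.34) and Pik3r4 (-0.29). Sorting nexins, which shape the tubules that leave endosomes, had 2 of 7 higher and 2 lower, the WASH complex, which builds actin there, 0 higher and 1 of 5 lower, and the endosomal tethers and fusion proteins 1 of 10 higher and 3 lower.

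The ESCRT partners had 2 of 10 higher and 4 lower, and of 2 tethering partners 1 rose, where 31.1% of all tested genes were higher and 27.8% lower. None of the 52 changed by 1 or more on the log2 scale while passing the test. The genes with the largest changes, named after their values were seen, were Mvb12b, an accessory ESCRT-I subunit, and Snx2, a sorting nexin. Mvb12b rose at low levels, with 1.33, 1.48 and 1.12 CPM in the saline mice and 2.54, 3.48 and 1.63 CPM in the PD mice (log2 fold change 0.97 ± 0.32, adjusted p = 0.0224). Snx2 fell, with 845, 961 and 839 CPM in the saline mice and 437, 494 and 513 CPM in the PD mice (log2 fold change -0.87 ± 0.08, adjusted p = 5.02e-06). Pik3c3 and Becn1 were likewise named after their values were seen, as was Pik3r4.

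**Figure D5:**
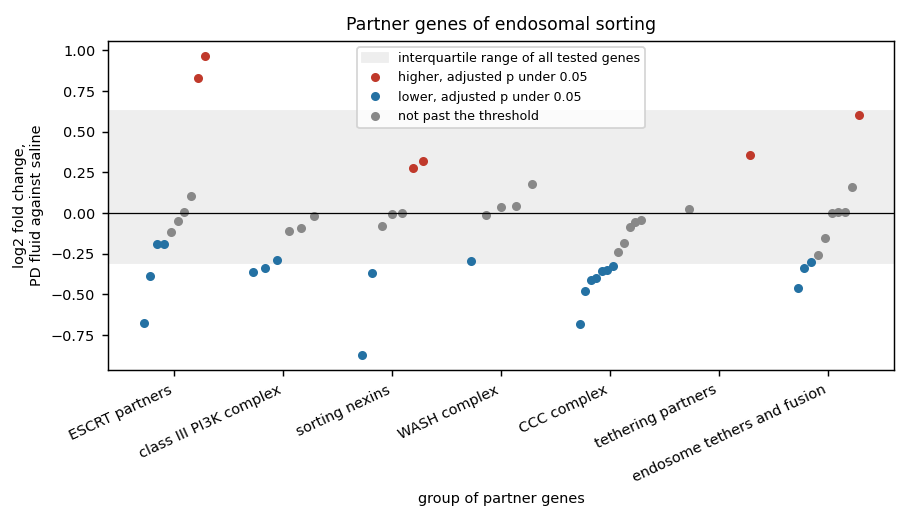
Log2 fold change of PD fluid against saline (y axis) for 52 partner genes by group (x axis), coloured as in the plot of the ESCRT and VPS genes, with grey shading for the interquartile range of all tested genes. All 12 CCC genes lie below 0 on the scale set by all genes, 7 of them past the threshold, and the largest values are 0.97 (Mvb12b) and -0.87 (Snx2).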

How the data were processed

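RNA sequencing libraries from CD31+ mesenteric cells, labelled endothelial, of 3 saline and 3 PD mice were grouped by the treatment in their labels. The authors deposited unnormalized read counts and FPKM values per gene and mouse, with group mean FPKM, log2 ratio, p-value and FDR columns of their own comparison that were not used. The submitters' processing notes name fastp 0.18.0, Bowtie2 2.2.8, HISAT2, StringTie 1.3.1 and RSEM, and the genome build and annotation are not given in the sources used here. Poly(A)-selected RNA was prepared with a NEBNext Ultra kit, and the study does not say that strand was kept. 0 columns of sample values were left unmatched.

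Counts were filtered with filterByExpr, scaled by TMM and tested with the quasi-likelihood test of edgeR 4.0.16 (R 4.3.3), without covariates, at an adjusted p of 0.05, and CPM are TMM-scaled. Standard errors were derived from the quasi-likelihood statistic. Gene positions came from GENCODE M21 (GRCm38) by gene identifier, and 50-base stretches shared between transcripts were counted in its sequences. Paralog ratios were tested by exact two-sided permutation. Alternatives were limma 3.58.1 (voom, and log2(FPKM + 1) with a pseudocount of 1), DESeq2 1.42.0, upper-quartile scaling, no filter on low counts, scaling to 12 endothelial markers, a replicate block, other thresholds, leaving out each mouse and, added after seeing the data, a robust loess correction for GC content. In simulated counts for this comparison (13969 genes), edgeR recovered 44 of 67 genes changed 1.5-fold and 64 of 67 changed 2-fold, and called 8 of 13770 unchanged genes. Every gene was simulated with the same dispersion and few were changed, whereas 58.9% of the tested genes were called in the data. These rates therefore do not carry over directly to the genes described here.

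Values in every mouse are given for genes past the threshold with an absolute log2 fold change of at least 0.5, for 9 paralog pairs, and for Hgs, Tsg101, Pdcd6ip and Vps35, and partner genes were to be named from an absolute log2 fold change of 1. The genes and lists were chosen with earlier results of these data known. Each library is from 1 labelled sample, and p-values measure only the spread between these samples.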

Additional observations from a re-analysis of the deposited data

How the results depend on the processing

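With the libraries scaled to the endothelial markers, 987 genes were higher and 10435 lower, 48 ESCRT and VPS genes were called (0 higher, 48 lower) and 50 partner genes (0 higher, 50 lower), and the log2 fold changes of the genes with positive values became Hgs -0.56, Stam -0.83, Stam2 -0.94, Vps37a -0.80, Vps37b -0.58, Vps37c -0.41, Chmp2b -1.02, Chmp3 -1.03, Chmp4c -0.94, Chmp5 -0.95, Chmp7 -0.77, Pdcd6ip -0.82, Vps4a -0.90, Vps26a -1.08, Vps26b -0.24, Vps26c -0.97, Vps18 -0.75, Vps51 -0.92, Vps52 -1.03, Vps13d -0.69, Vps9d1 -0.47. An adjusted p threshold of 0.01 left 15 calls, 7 of them lower, and an added minimum change of 0.5 left 5, with 4 higher and 1 lower. Elsewhere the signs that turned belonged to uncalled genes, with Vps26a -0.0043 under upper-quartile scaling, Vps26a -0.012 under DESeq2, Chmp4c -0.0033, Chmp6 0.0070, Vps26a -0.0060 under limma on log2(FPKM + 1), Vps35 0.055, Vps51 -0.19, Vps52 -0.14 under the GC correction. Leaving out 1 mouse gave 6996 to 8018 calls over all genes (3852 to 4333 higher, 3121 to 3685 lower), 18 to 25 among the ESCRT and VPS genes (10 higher in each of the 6 fits, 8 to 15 lower) and 19 to 26 among the partners (3 to 5 higher, 16 to 21 lower). The genes whose sign then turned ranged over Chmp2b -0.012 to 0.14, Chmp4b -0.32 to 0.0022, Chmp4c -0.19 to 0.36, Chmp6 -0.079 to 0.041, Vps26a -0.046 to 0.094, Vps39 -0.058 to 0.0043, Vps8 -0.056 to 0.093, Vps52 -0.053 to 0.091, Vps13c -0.27 to 0.13 on the log2 scale. The Chmp4b/Chmp4c difference ranged from -0.81 to 0.059. The cause of these changes was not tested. Of the called genes, 6 of 10 higher and 7 of 13 lower kept their call and direction at an adjusted p of 0.05 in all fits tried other than endothelial scaling. Same-numbered mice did not deviate together (correlations of 0.188, 0.067 and -0.274), and a replicate block gave 21 calls among the ESCRT and VPS genes, without those of Vps35l and Vps54, and 7909 over all genes. The precision is limited by 3 mice per group, by the low counts of Chmp4b, Chmp4c and Vps13c, and by reads that Hgs, Vps25, Vps37b and others can share with other genes. The share of 50-base stretches also found elsewhere was 28.2% in Tsg101, 27.2% in Vps51, 22.5% in Chmp1b, 19.3% in Vps35l and 15.6% in Snf8. Cell content differs between the groups in every PD mouse, so treatment and cell content cannot be told apart.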
